A study of Mus musculus with 8 samples.

Results

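The 7 genes described here are those of V(D)J recombination and of the surrogate light chain: Rag1, Rag2 and Dntt on one side, and Vpreb1, Vpreb2, Vpreb3 and Igll1 on the other. They were chosen by name out of the 41214 gene identifiers that were counted, with earlier results of these data known. Shares of all genes set beside their counts, or beside those of the lists, are therefore a description only. All 7 genes passed the filter on low counts and were among the 16456 genes tested. They were measured by RNA sequencing in 8 tumours taken from the spleen of mice on the C57Bl6 strain. Miz1, the product of Zbtb17, is a zinc finger transcription factor, and the deltaPOZ allele encodes a form of it without the POZ domain, the domain through which Miz1 molecules join. The groups were B cell tumours with wild-type Miz1 (B wt), B cell tumours with the deltaPOZ allele (B deltaPOZ), and tumours of CD4+ T cells with wild-type Miz1 (T wt) or the deltaPOZ allele (T deltaPOZ), each with 2 libraries from separate mice. The comparisons ask how the lack of the POZ domain and the lineage of the tumour bear on these genes.

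What started the tumours, the cells in which the allele was altered and the age of the mice are given by none of the sources used. The names of all T libraries carry a Notch tag, and those of T deltaPOZ but not T wt an ENU tag, and what the tags stand for is not stated. In the T tumours the ENU tag and genotype therefore cannot be told apart. The libraries held 44330101 to 58271208 gene counts, so that 3 counts, the limit set by a count of 0, equal 0.0515 to 0.0677 on the per-million scale (CPM) of these totals. That limit covers counting error only. All other CPM values include the normalization of library sizes. Zbtb17 ranged from 48.0 to 66.1 CPM for B wt, 49.4 to 59.1 for B deltaPOZ, 42.3 to 49.6 for T wt and 36.9 to 40.1 for T deltaPOZ. Counts over the whole gene do not show whether the POZ exons were missing, so they do not check the labels. In the B tumours sex and genotype cannot be told apart: Xist, the RNA that silences one X chromosome, reached 975 and 1477 CPM with wild-type Miz1 and only 0.936 and 0.757 with deltaPOZ. Among the T tumours Xist was at 1246 and 26.0 CPM in T wt and at 11.8 and 35.4 in T deltaPOZ, so by Xist sex was not balanced between the genotypes there either. Ddx3y, a gene of the Y chromosome, was at 0.0949 and 0.289 CPM in B wt and 174 and 133 in B deltaPOZ. In T wt it was at 22.5 and 178 CPM, and in T deltaPOZ at 142 and 184. All T libraries thus held both RNAs, Xist above its level in B deltaPOZ and Ddx3y above its level in B wt. The reason was not tested. B and T libraries carry different run tags in their names, so lineage and run tag cannot be told apart either. Each comparison of genotypes lies within 1 run tag, but whether the tags mark sequencing runs is not stated.

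The labelled cell types were checked against their markers. The summed level of 10 B lineage genes was 1915 to 3266 CPM in the B tumours and 30.0 to 149 in the T tumours, and that of 12 T lineage genes was 117 to 231 CPM in B and 2734 to 4695 in T. Cd4 was detected in all T libraries, at 331 and 432 CPM for T wt and at 98.8 and 118 for T deltaPOZ, and Cd8a lay above it at 356 to 1246 CPM in the 4 T libraries. Genes of red cell precursors summed to 4.71 to 219 CPM in B and 3570 to 18807 CPM in T, and myeloid genes to 103 to 1266 CPM in B and 118 to 644 CPM in T. In bulk tumours fewer cells of a type and less RNA per cell cannot be told apart.

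V(D)J recombination builds the variable parts of antigen receptors by cutting and joining gene segments in developing B and T cells. The RAG1 and RAG2 proteins together form the recombinase that makes the cuts, with the catalytic site on RAG1, and terminal transferase, the product of Dntt, adds nucleotides that are in no template before the ends are joined. In precursor B cells the new heavy chain is first tested with a surrogate light chain, made of a VpreB protein and lambda5 (Igll1), in the pre-B cell receptor. Precursor T cells use the invariant chain pre-T alpha (Ptcra) in a similar role and do not use the surrogate light chain, while both lineages use RAG and terminal transferase. RAG and surrogate light chain genes are normally shut off as lymphocytes mature.

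The genes lie in 4 places of the mouse genome (GRCm38, GENCODE M21). Rag1 (ENSMUSG00000061311, chromosome 2, 101638282 to 101649501, minus strand) and Rag2 (ENSMUSG00000032864, chromosome 2, 101624718 to 101632529, plus strand) point at each other across 5752 bases. Igll1 (ENSMUSG00000075370, chromosome 16, 16860671 to 16863985, minus strand) and Vpreb1 (ENSMUSG00000059305, chromosome 16, 16868403 to 16870843, minus strand) are 4417 bases apart, and Vpreb2 (ENSMUSG00000059280, chromosome 16, 17980428 to 17981273, plus strand) lies 1109584 bases further on. Vpreb3 (ENSMUSG00000000903, chromosome 10, 75943057 to 75949657, plus strand) and Dntt (ENSMUSG00000025014, chromosome 19, 41029275 to 41059525, plus strand) stand alone.

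Vpreb1 and Vpreb2 are near-copies, which bears on how their reads could be counted. Their 429 coding bases differ at 9 positions (97.9% identity). A stretch that holds 5 of them is shown for both genes from GRCm38 (coding bases 298 to 387, 5′ to 3′ on the coding strand), with the differing bases in capitals.

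Vpreb1, chr16:16868638-16868727, minus strand: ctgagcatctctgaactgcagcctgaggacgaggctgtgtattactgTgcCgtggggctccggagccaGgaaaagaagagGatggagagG
Vpreb2, chr16:17980949-17981038, plus strand: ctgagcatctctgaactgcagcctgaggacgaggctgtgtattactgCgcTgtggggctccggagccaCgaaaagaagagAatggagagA

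Of all 50-base stretches of the annotated transcripts, 23.6% of those of Vpreb1 and 32.8% of those of Vpreb2 also occurred in a transcript of another gene, and 7.75% and 14.7% of the 100-base stretches did. For Dntt, Vpreb3 and Igll1 none did at either length. Reads that fit both copies equally may have been left out or assigned to either copy, so the levels of Vpreb1 and Vpreb2, and the split between them, are uncertain.

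The bases before the start sites of Rag1, Vpreb1 and Igll1 are shown because E proteins such as E2A (Tcf3), which bind E boxes, are known to act on these genes in precursor B cells. Each run holds the 250 bases before the start in RefSeq (GRCm38.p6), 5′ to 3′ towards the gene, with every E box (CANNTG on either strand, in which CAGGTG is one case) in capitals.

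Rag1, chr2:101649533-101649782, minus strand: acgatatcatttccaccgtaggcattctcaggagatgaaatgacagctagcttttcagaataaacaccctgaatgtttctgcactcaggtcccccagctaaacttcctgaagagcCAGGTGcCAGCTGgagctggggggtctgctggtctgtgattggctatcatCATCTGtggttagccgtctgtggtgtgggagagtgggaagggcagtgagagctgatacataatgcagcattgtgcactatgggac
Vpreb1, chr16:16869256-16869505, minus strand: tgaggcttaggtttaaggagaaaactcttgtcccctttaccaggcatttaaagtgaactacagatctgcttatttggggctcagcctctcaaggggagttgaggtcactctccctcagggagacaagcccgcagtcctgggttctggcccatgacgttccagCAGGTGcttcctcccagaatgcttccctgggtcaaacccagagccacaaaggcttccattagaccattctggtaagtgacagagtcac
Igll1, chr16:16863986-16864235, minus strand: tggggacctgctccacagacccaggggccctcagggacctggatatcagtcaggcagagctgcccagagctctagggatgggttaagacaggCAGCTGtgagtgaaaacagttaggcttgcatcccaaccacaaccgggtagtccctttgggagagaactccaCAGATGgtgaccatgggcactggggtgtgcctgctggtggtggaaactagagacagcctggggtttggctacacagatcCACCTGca

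Counting the start site as 0, CAGGTG began at -135 before Rag1 and at -88 before Vpreb1, and on the other strand at -8 before Igll1. Matches were counted from 250 bases before to 50 bases after the start. CANNTG occurred there in all 7 genes, against 72.3% of the 32817 promoters searched, and CAGGTG in 4 of 7, against 20.2%. The CAGGTG of Vpreb1 and that of Vpreb2 (at -232) lie in nearly the same sequence, so they are not separate cases. The EBF motif CCCNNGGG occurred in 1 of 7 (Igll1, at -231), against 13.7%, and the Ikaros core TGGGAA in 2 of 7, against 25.6%. These matches describe letters and not binding, which was not measured.

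Rag1, the catalytic subunit, was abundant in 6 of the 8 tumours and low in 1 deltaPOZ tumour of each lineage. It was measured at 1596 and 482 CPM in the B wt tumours, 920 and 50.3 in the B deltaPOZ tumours, 758 and 988 among T wt, and 8.30 and 1068 among T deltaPOZ. The second B deltaPOZ library and the first T deltaPOZ library were the low ones: in the T tumours the lowest of the other 3 libraries was 91.4 times that of T deltaPOZ 1, and in the B tumours the lowest of the other 3 was 9.59 times that of B deltaPOZ 2. By group means Rag1 ran from B wt (1039 ± 788 CPM, SD, n = 2) through T wt (873 ± 162) and T deltaPOZ (538 ± 750) to B deltaPOZ (485 ± 615), and every neighbouring pair in that order overlapped.

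Rag2, the partner without which RAG1 does not cut in cells, showed the same low libraries. It was measured at 78.2 and 55.6 CPM in the B wt tumours, 46.8 and 5.34 in the B deltaPOZ tumours, 22.0 and 37.9 among T wt, and 0.0733 and 28.7 among T deltaPOZ. The value of 0.0733 CPM rests on 4 counts, next to the detection limit. The group means were 66.9 ± 16.0 CPM in B wt, 29.9 ± 11.2 in T wt, 26.1 ± 29.3 in B deltaPOZ and 14.4 ± 20.2 in T deltaPOZ. The 2 B wt libraries lay above both T wt and both B deltaPOZ libraries, and the other neighbours overlapped.

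Per kilobase of annotated exon, Rag1 exceeded Rag2 in every library. The ratio of these per-length levels was 10.6 and 4.49 for B wt, 10.2 and 4.87 for B deltaPOZ, 17.9 and 13.5 for T wt, and 58.7 and 19.3 for T deltaPOZ, the 58.7 resting on the 4 counts of Rag2. The 4 B libraries lay below the 4 T libraries in this ratio. An overlapping gene touches both: B230118H07Rik (chromosome 2, 101560781 to 101649532, minus strand) covers Rag1 on the same strand and Rag2 on the opposite one, and whether the counting used strand is given by none of the sources used. Its own level was 43.8 and 5.54 CPM for B wt, 12.3 and 8.69 for B deltaPOZ, 63.6 and 43.0 for T wt, and 0.935 and 93.1 for T deltaPOZ, so it too was lowest in T deltaPOZ 1. Of the 50-base stretches of the annotated transcripts, 0.503% of those of Rag1 and 4.70% of those of Rag2 also occurred in a transcript of B230118H07Rik. Of the 100-base stretches 0% and 3.24% did. How many reads of the 3 genes were assigned to one another was not tested.

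Dntt, whose product diversifies the joints, was a gene of the T tumours in this series. It was measured at 112 and 417 CPM among T wt, 5.13 and 278 among T deltaPOZ, 1.84 and 1.07 among B wt, and 0.449 and 0.0399 among B deltaPOZ, the last resting on 2 counts. All 4 T libraries lay above all 4 B libraries. Within each lineage the lowest library was the one that was lowest for Rag1 and Rag2, T deltaPOZ 1 and B deltaPOZ 2. The group means were 264 ± 216 CPM in T wt, 142 ± 193 in T deltaPOZ, 1.45 ± 0.547 in B wt and 0.244 ± 0.289 in B deltaPOZ (SD, n = 2), and the 2 T groups overlapped.

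**Figure D1:**
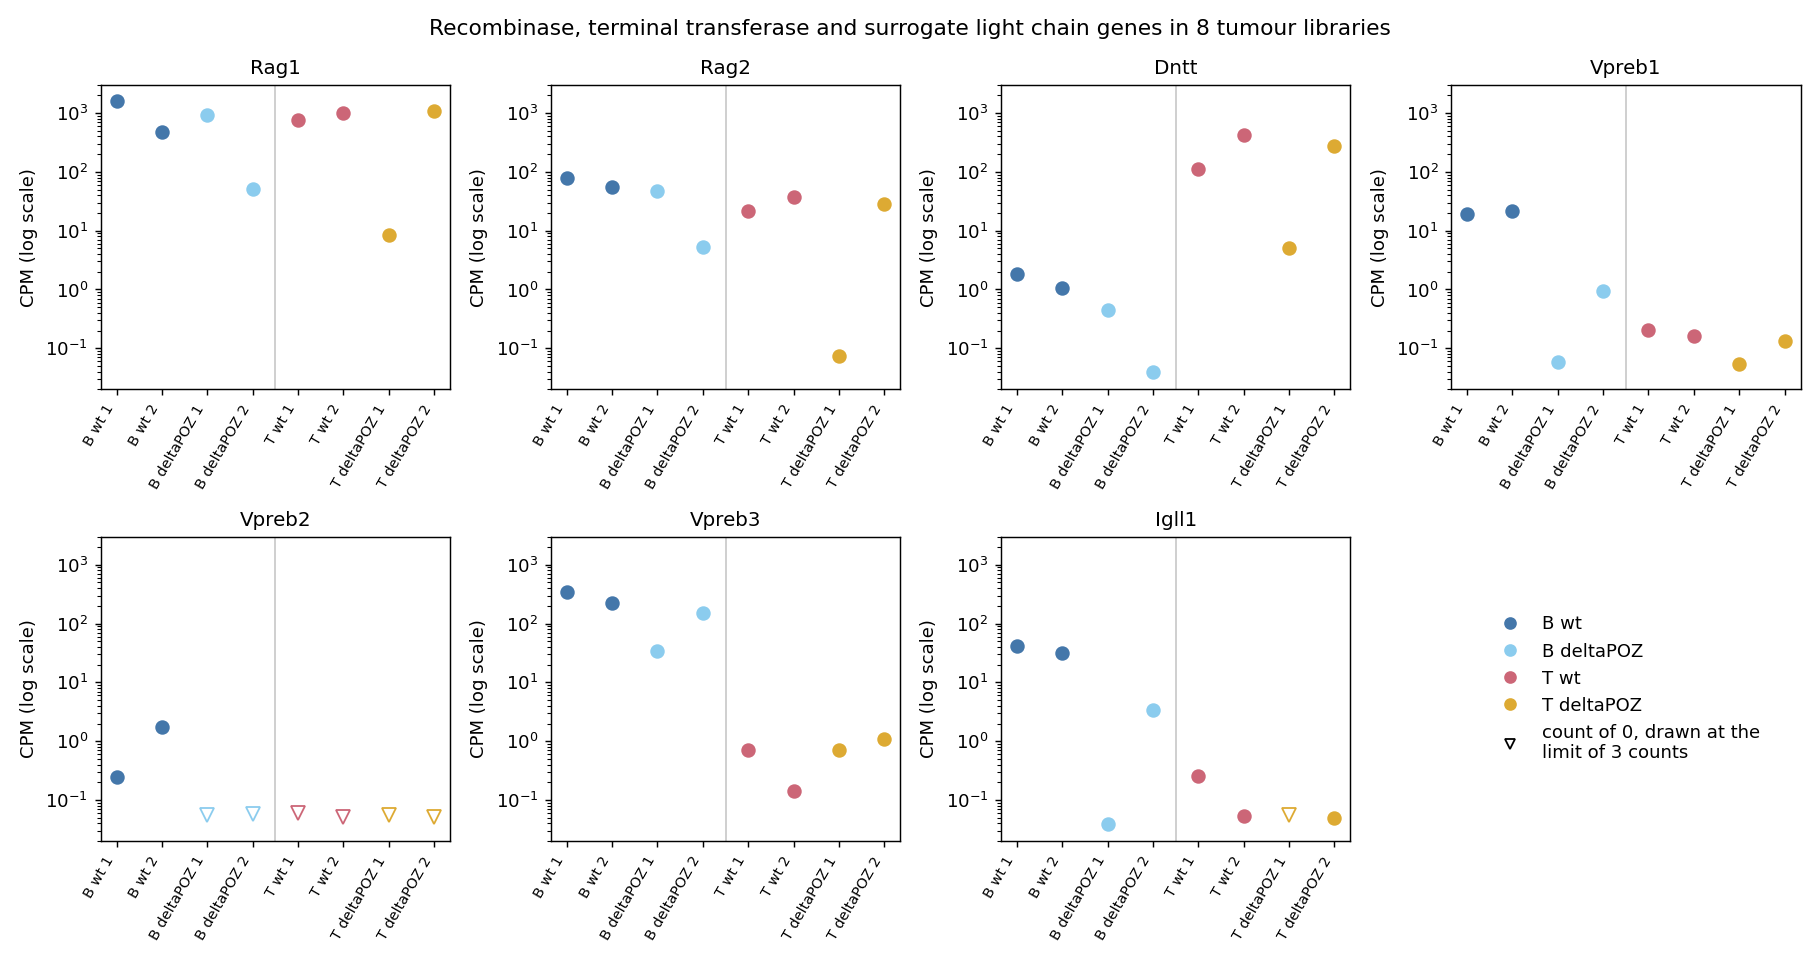
CPM of the 7 genes in each of the 8 libraries (log axis, 1 panel per gene), coloured by group; open triangles mark a count of 0, drawn at the limit of 3 counts. Rag1 and Rag2 are low in B deltaPOZ 2 and T deltaPOZ 1, while Vpreb1 and Igll1 are lowest among the B tumours in B deltaPOZ 1.

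Vpreb1 and Igll1, the genes of the classical surrogate light chain, were high in both B wt tumours and low everywhere else. Vpreb1 was measured at 19.3 and 21.9 CPM in the B wt tumours, 0.0585 and 0.937 in the B deltaPOZ tumours, 0.204 and 0.162 among T wt, and 0.0550 and 0.133 among T deltaPOZ. In counts these were 1016 and 986 for B wt, 3 and 47 for B deltaPOZ, and 3 to 11 in the T libraries. The lower B deltaPOZ library was thus at the detection limit and below 3 of the 4 T libraries.

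Igll1, which encodes lambda5, followed Vpreb1 closely. It was measured at 42.3 and 32.0 CPM in the B wt tumours, 0.0390 and 3.35 in the B deltaPOZ tumours, 0.260 and 0.0541 among T wt, and 0 and 0.0497 among T deltaPOZ. The counts behind these levels were 2228 and 1440 for B wt, 2 and 168 for B deltaPOZ, and 0 to 14 in the T libraries. Both genes were lower in both B deltaPOZ tumours than in either B wt tumour, and in both the first B deltaPOZ library was lower than the second, the reverse of the order for Rag1, Rag2 and Dntt. Per kilobase of exon the 2 genes were level in B wt, at a mean of 17.2 for Vpreb1 and 17.2 for Igll1, and their ratio (Igll1 over Vpreb1) was 1.22 and 0.809 there and 1.98 in B deltaPOZ 2.

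Vpreb2, the near-copy of Vpreb1, was detected only in B wt. It had 13 and 78 counts in B wt (0.247 and 1.73 CPM) and 0 counts in the other 6 libraries. The B wt group was at least 31.4-fold higher than B deltaPOZ, with the 0 of that group set to 3 counts over the group. Taken alone, B wt 1 was at least 7.99-fold and B wt 2 at least 61.3-fold higher, so most of this value came from B wt 2. With the uncertainty from shared sequence, this value says little of the copies' separate levels.

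Vpreb3, whose product binds the heavy chain inside the cell and is no part of the surface receptor, was the most abundant of the surrogate light chain genes and was still well detected in both B deltaPOZ tumours. It was measured at 344 and 226 CPM in the B wt tumours, 34.7 and 152 in the B deltaPOZ tumours, 0.706 and 0.144 among T wt, and 0.696 and 1.08 among T deltaPOZ. All B libraries lay above all T libraries, and both B deltaPOZ libraries below both B wt ones. Per kilobase of exon its mean was 332 CPM with wild-type Miz1 and 109 with deltaPOZ, against 17.2 and 0.415 for Vpreb1.

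**Figure D2:**
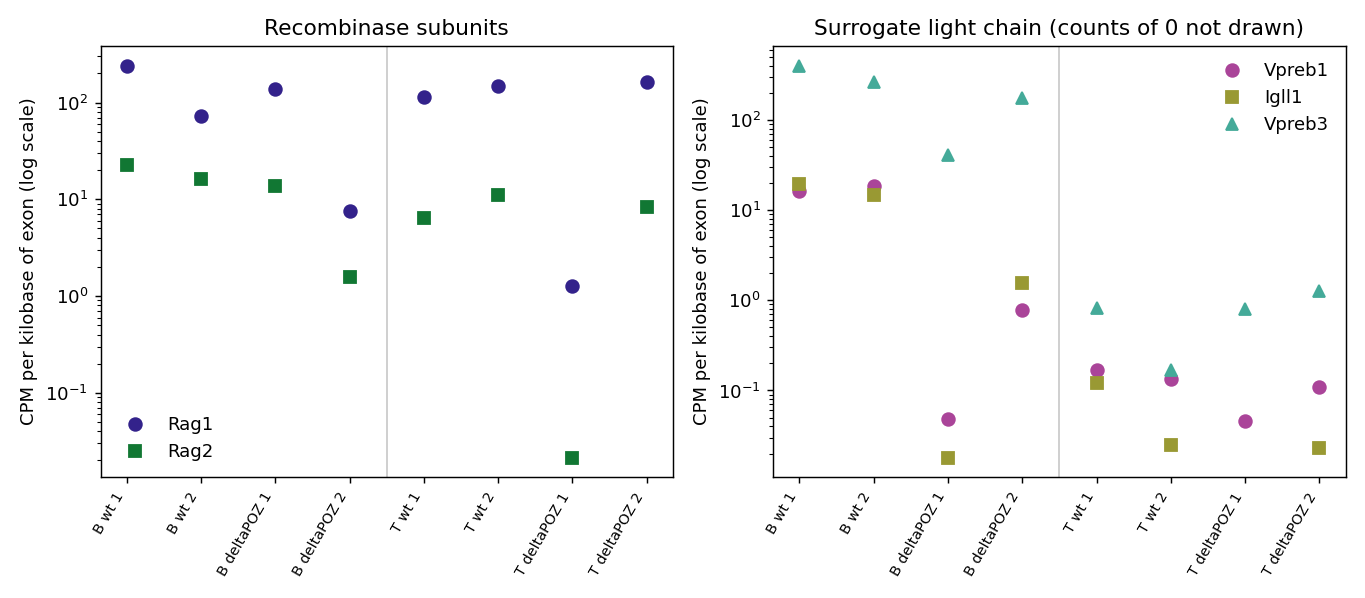
Level per length (CPM per kilobase of annotated exon, log axis) of the recombinase subunits (left) and of Vpreb1, Igll1 and Vpreb3 (right) in the 8 libraries; the axes of the panels differ, and counts of 0 are not drawn. Rag1 lies above Rag2 in every library, and Vpreb1 and Igll1 lie close together in B wt, below Vpreb3.

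In the test of B deltaPOZ against B wt with edgeR's quasi-likelihood method and Benjamini-Hochberg adjustment over all genes, none of the 7 passed the threshold of 0.05, where 0.00608% of all genes (1 gene) did. At an unadjusted p under 0.05 there were 3 of 7 (Vpreb1, Vpreb2 and Igll1), against 12.1% of all genes, and DESeq2 called 1 of the 7, Vpreb1 (adjusted p 5.59e-06), with 688 genes in all, and limma-voom 0 of the 7. In 6 of the 7 both B deltaPOZ libraries lay below both B wt libraries, against 19.1% of all genes. Vpreb2 passed the filter on low counts only through B wt, so its direction in these counts was fixed by the filter and it supports nothing. Rag1 was the exception, because B wt 2 was below B deltaPOZ 1.

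The sizes of these differences were unequal. The log2 fold change was -5.37 for Vpreb1 (SE 1.15, adjusted p 0.224 in edgeR) and -4.45 for Igll1 (SE 1.62, adjusted p 0.371). Without B deltaPOZ 2 they were -8.40 and -9.81, with edgeR adjusted p 0.0657 and 0.116, and without B deltaPOZ 1 they were -4.40 and -3.42, so the size depended on which deltaPOZ tumour was kept. Vpreb3 had -1.61 (SE 0.77, edgeR adjusted p 0.453), Dntt -2.56 (SE 1.89, 0.617), Rag2 -1.36 (SE 1.77, 0.788) and Rag1 -1.10 (SE 1.85, 0.849). For the recombinase genes the SE exceeded the difference. Without B deltaPOZ 2 the log2 fold change was -0.18 for Rag1, -0.52 for Rag2, -1.70 for Dntt and -3.04 for Vpreb3. Without B deltaPOZ 1 it was -4.31 for Rag1, -3.59 for Rag2, -5.06 for Dntt and -0.85 for Vpreb3, and without B wt 1 that of Rag1 was 0.01.

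Among the T tumours no gene of all 16456 passed in edgeR (49 did in DESeq2, 0 of the 7 among them, and 0 in limma-voom), and at an unadjusted p under 0.05 there were 0 of the 7, against 2.65% of all genes. The log2 fold change of T deltaPOZ against T wt was -0.70 (SE 1.83) for Rag1, -1.06 (SE 1.76) for Rag2, -0.90 (SE 1.47) for Dntt and 1.07 (SE 0.91) for Vpreb3, each with an edgeR adjusted p of 1. Only T deltaPOZ 1 was low: without it the values were 0.29 for Rag1, -0.07 for Rag2 and 0.07 for Dntt, and without T deltaPOZ 2 they were -6.72, -8.63 and -5.69. The value of Dntt was -1.57 without T wt 1 and 0.34 without T wt 2, and that of Vpreb3 2.60 and 0.33. Vpreb1, Vpreb2 and Igll1 were at 0 to 14 counts in the T libraries and were given no fold change. Vpreb1 and Igll1 were lower in both T deltaPOZ libraries than in either T wt library, though for Igll1 the nearest of them had 3 counts each, where 17.0% of all genes were lower in the same way.

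Whether the change between genotypes differed between the lineages was tested as a difference of the log2 fold changes (T minus B). This test cannot separate the allele from sex in B or from the ENU tag in T. It passed for 0 of the 7 and for 0 of all genes with edgeR (0 of the 7 and 227 of all genes with DESeq2, and 0 with limma-voom), and for 1 of the 7 and 6.26% of all genes at an unadjusted p under 0.05. Vpreb1 had the smallest p, with a fitted difference of 4.43 (SE 1.56, p 0.0254 in edgeR, adjusted p 0.732). Its T part rests on 3 to 11 counts per library, and with 1 library left out it ran from 3.47 (without B deltaPOZ 1) to 7.47 (without B deltaPOZ 2), so its size is uncertain. For Rag1 the difference was 0.40 and for Rag2 0.30, each with an edgeR adjusted p of 0.99991.

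Between the lineages, over both genotypes, 4 of the 7 genes passed the test, against 35.3% of all genes: 1 was higher in T, against 19.3%, and 3 were lower, against 16.0%. Dntt was higher in T tumours by 8.33 on the log2 scale (SE 1.47, adjusted p 0.00666 in edgeR). Vpreb3 fell by 8.05 on the log2 scale (SE 0.74, edgeR adjusted p 0.000835), Igll1 fell by 6.89 (SE 1.38, 0.0102) and Vpreb1 fell by 4.58 (SE 0.82, 0.00690). Dntt (higher in T, as without overlap were 20.1% of all genes) and Vpreb3 (lower, as were 17.0%) separated the lineages, whereas T libraries reached above B deltaPOZ 1 for Vpreb1 and Igll1. Vpreb2, seen in B wt alone, did not pass and is given no fold change here.

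The recombinase genes did not pass between the lineages. Rag1 gave -0.05 for T against B (SE 1.29, adjusted p 0.982 in edgeR), with an SE far larger than the value. Rag2 gave -1.01 (SE 1.24, edgeR adjusted p 0.560), and without T deltaPOZ 2 this became -4.79 with an edgeR adjusted p of 0.0261. The 4 calls each held when any 1 library was left out, but their sizes moved. Without B deltaPOZ 2 Vpreb1 was at -3.07, Igll1 at -4.22 and Vpreb3 at -7.34. Without T deltaPOZ 2 Dntt was at 5.94 and Igll1 at -8.66, without T wt 1 Vpreb3 was at -8.82 and Igll1 at -7.64, without T wt 2 Dntt was at 7.70, and without B deltaPOZ 1 it was at 9.58. Without both B deltaPOZ 2 and T deltaPOZ 1, a setting added after the data were seen, Dntt (8.38), Vpreb1 (-2.83) and Vpreb3 (-7.20) still passed and Igll1 did not (-3.78, edgeR adjusted p 0.0640). Limma-voom did not call Dntt (7.63, adjusted p 0.0858).

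**Figure D3:**
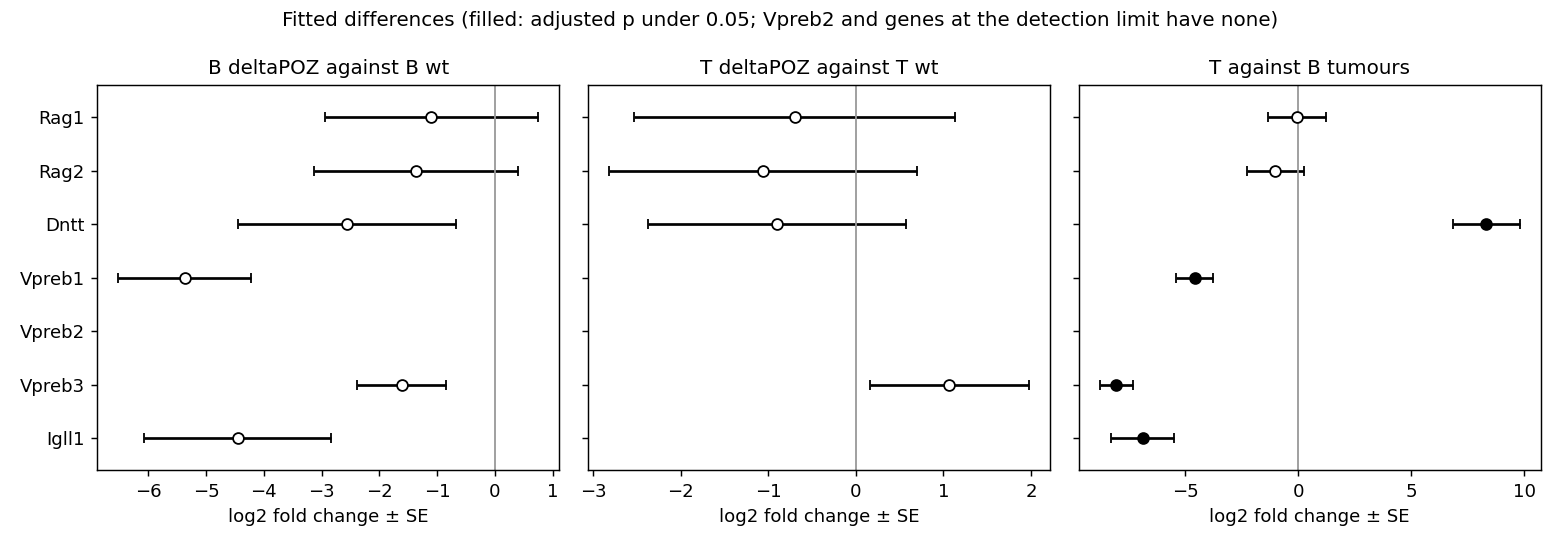
Fitted log2 fold changes with their SE from edgeR for the 3 comparisons (each panel has its own horizontal scale); filled points passed an adjusted p of 0.05. The 4 filled points, Dntt to the right and Vpreb1, Vpreb3 and Igll1 to the left, are all in the comparison of lineages.

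T deltaPOZ 1 was low for more than the recombination genes, as was seen from the levels of thymocyte genes that were picked after their values were seen. Trbc1, a constant gene of the T cell receptor beta chain, was at 176 and 313 CPM in T wt, 1.74 in T deltaPOZ 1 and 263 in T deltaPOZ 2, while the other constant gene, Trbc2, was at 261, 331, 249 and 191 CPM in the same order. Ptcra was at 101 and 222 CPM in T wt, 19.0 in T deltaPOZ 1 and 172 in T deltaPOZ 2. Single genes differed in this: Cd3e was at 93.4 and 88.0 CPM for T wt and at 86.0 and 78.5 for T deltaPOZ, and Dtx1, a Notch target, at 772, 821, 762 and 958 CPM. The summed level of 8 markers of double positive thymocytes was 3120 and 3764 CPM for T wt and 1986 and 2271 CPM for T deltaPOZ, and that of 8 double negative markers was 1471 CPM in T deltaPOZ 1 against 1716 to 2136 in the other 3. Their part in the low Rag1, Rag2 and Dntt of that library was not tested.

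**Figure D4:**
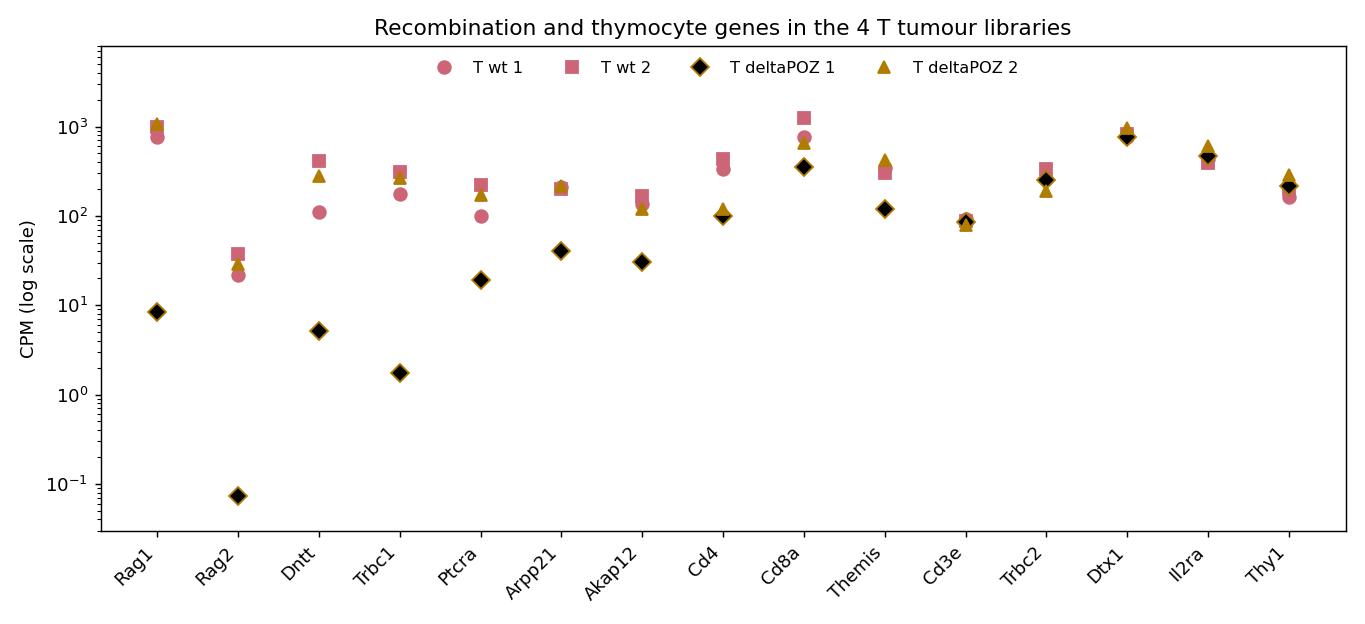
CPM (log axis) of Rag1, Rag2, Dntt and 12 thymocyte and T lineage genes in the 4 T libraries; the black diamond is T deltaPOZ 1 and the other symbols are the other 3 libraries. The diamond lies far below the rest for Rag1, Rag2, Dntt and Trbc1 and close to or among them for Cd3e, Trbc2, Dtx1, Il2ra and Thy1.

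Markers of precursor B cells had the same sign as the surrogate light chain genes. All 12 had a negative log2 fold change in B deltaPOZ, with a median of -1.04 against -0.01 over all genes. With edgeR none passed the test and 5 had an unadjusted p under 0.05, against 12.1% of all genes. DESeq2 called 3 (Arpp21, Erg and Myb), where it called 688 of all 16456 genes, and limma-voom called 0, where it called 6 of all genes. Their summed level was 5191 and 2979 CPM with wild-type Miz1 and 2384 and 2350 CPM with deltaPOZ, and no marker of the list was at 0. The list was not particular to the B tumours: it summed to 2536 to 3523 CPM in the T tumours, above both B deltaPOZ libraries. Between the lineages 5 of the 12 were higher in T, against 19.3% of all genes, and 4 lower, against 16.0%. Erg, a factor of early progenitors, was measured at 21.1 and 11.5 CPM with wild-type Miz1 and 0.156 and 0.0598 with deltaPOZ, Il7r, the interleukin 7 receptor, at 395 and 121 against 27.3 and 59.7, and Cd93 at 726 and 522 against 448 and 77.4. These 3 were named after their values were seen. The 10 markers of mature B cells that were matched had 5 positive and 5 negative values, with a median of -0.38, while their summed level was above that of B wt in both B deltaPOZ libraries, at 1130 and 901 CPM against 591 and 770 CPM. With edgeR none of them passed and 3 had an unadjusted p under 0.05, against 12.1% of all genes. DESeq2 and limma-voom each called 1 (Cd37). Of the 10 general B lineage markers 9 had a negative value, with a median of -0.57. With edgeR none of these passed and 2 had an unadjusted p under 0.05, against 12.1% of all genes. DESeq2 called 1 (Cd72). Their summed level was 1993 and 1915 CPM against 3266 and 2477 CPM. The part of these markers in the lower surrogate light chain genes was not tested.

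Regulators of these genes were followed as a list of 28 factors. With edgeR none passed the test in either genotype comparison. At an unadjusted p under 0.05 there were 4 in B, against 12.1% of all genes, and 1 in T, against 2.65%. DESeq2 called 2 in B (Gfi1b and Myb), where it called 688 of all 16456 genes, and 0 in T. In B deltaPOZ 22 of 28 had a negative log2 fold change, with a median of -0.45 against -0.01 over all genes, and in T deltaPOZ 17 of 28 did, with a median of -0.13. Among those with the smallest p in B were Myb, a factor of lymphoid progenitors, at -1.07 (SE 0.30, edgeR adjusted p 0.291), and Tcf3, which encodes E2A, at -0.85 (SE 0.26, adjusted p 0.318). Tcf3 was measured at 627 and 364 CPM with wild-type Miz1 and 265 and 287 with deltaPOZ. Ebf1, which with E2A turns on Vpreb1 and Igll1, was measured at 262 and 245 CPM against 83.4 and 147, and Pax5, the factor of B cell identity, at 70.8 and 62.6 against 43.5 and 54.9. For all 3, of which Ebf1 and Pax5 were named after their values were seen, both B deltaPOZ libraries were below both B wt libraries, as for 19.1% of all genes. Id3, also named after its values were seen, was lower in the same way, at 133 and 131 CPM against 56.4 and 70.1. The other 6 of the 28 factors had a positive log2 fold change in B deltaPOZ. The part of any of these factors in the lower surrogate light chain genes was not tested. Between the lineages 12 of the 28 were higher in T, against 19.3% of all genes, and 9 lower, against 16.0%, among them Tcf7 (7.88), Bcl11b (7.53), Satb1 (6.64) and Gata3 (6.63), factors of T cell development.

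The lists of receptor genes divided by lineage. Of 14 partners and signalling genes of the pre-B cell receptor, 10 were lower in T tumours, against 16.0% of all genes, and 1 was higher, with a median log2 fold change of -3.87, and all 11 genes of the pre-T cell receptor list were higher, with a median of 6.84, where 19.3% of all genes were higher and their median was 0.05. Cd79b (-5.03), Blnk (-4.95) and Plcg2 (-4.69) were among the largest changes of the first list, and Cd3e (8.50), Trbc1 (8.35), Trbc2 (8.19) and Ptcra (8.15) led the second. None of either list passed in a genotype comparison with edgeR. At an unadjusted p under 0.05 there were 3 in B (Cd79a and Lat among them), against 12.1% of all genes, and 0 in T, against 2.65%. DESeq2 called 1 in B (Lat), where it called 688 of all 16456 genes. In B deltaPOZ 11 of the 14 pre-B cell receptor genes had a negative value, with a median of -0.42. Cd79a, a signalling chain of the receptor, was at -1.63 (edgeR adjusted p 0.382).

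Of 10 genes of end joining, which act after the cut, 3 were higher in T tumours and 2 lower, with a median of 0.10. Of 15 RAG cofactors and genes of the break response 3 were higher and 1 lower, with a median of -0.25. Of all genes 19.3% were higher and 16.0% lower. DNA ligase IV (Lig4) was higher in T by 1.67 on the log2 scale (SE 0.33, adjusted p 0.0103 in edgeR), as were Xrcc6 (1.44), which encodes Ku70, and Xrcc4 (0.82). Polm, a polymerase related to terminal transferase, was lower in T (-1.44, SE 0.30, edgeR adjusted p 0.0113), as was Xrcc5 (-0.73), which encodes Ku80. Polm was thus lower in the lineage in which Dntt was higher: it was measured at 56.4 and 24.7 CPM for B wt, 15.4 and 14.2 for B deltaPOZ, 11.5 and 9.10 for T wt and 9.11 and 6.80 for T deltaPOZ. H2afx (1.34), Mdc1 (0.84) and Hmgb2 (0.75) were higher in T and Mre11a (-0.57) lower. None of the 25 genes passed in B deltaPOZ or T deltaPOZ with edgeR, where 5 had an unadjusted p under 0.05 in B (12.1% of all genes did) and 0 in T (2.65%). DESeq2 called 2 in B (Polm and Hmgb2), where it called 688 of all 16456 genes. The medians there lay between -0.08 and 0.05.

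The neighbours of the genes were compared with them. Traf6, 28928 bases from Rag1, had a log2 fold change of -0.84 in B deltaPOZ (edgeR adjusted p 0.425), Top3b, 6751 bases from Igll1 and overlapping Vpreb1 on the opposite strand, -0.18 (0.833), and Ppm1f, beyond Top3b, 0.30 (0.780). On the far side of Igll1 the nearest tested gene, Spag6l, was at 0 to 0.114 CPM in the B libraries, too low to give a value. Around Dntt, Blnk was at -0.54 and Tm9sf3 at 0.09. The median over the tested genes of each chromosome with one of the 7 was -0.08 for chromosome 2, -0.03 for 10, 0.05 for 16 and 0.00 for 19.

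The likeness of other genes was described by Pearson's r of log2(CPM + 0.5) over the 8 libraries, across 9688 genes. Lineage and run tag go together among these libraries. Rag1 and Rag2 had an r of 0.956 and Vpreb1 and Igll1 one of 0.983, while Rag1 had 0.351 with Dntt and Vpreb1 0.783 with Vpreb3. Trim5 (0.964) and Cd44 (0.953) were most like Rag1, and Trim5 (0.955) and Ifi203 (0.912) most like Rag2. Trim5 was measured at 21.9 and 16.8 CPM in the B wt tumours, 19.9 and 5.52 in the B deltaPOZ tumours, 16.1 and 19.2 among T wt, and 3.72 and 13.0 among T deltaPOZ, low in the same libraries as the recombinase, though it belongs to a family of near-copies whose reads may be split. Pik3r5 and Vdr (both 0.985) were most like Dntt, Ifngr2 (0.998) most like Vpreb3, Tmem132e and Acp6 (both 0.990) most like Vpreb1, and Epha2 (0.991) and Cd72 (0.984) most like Igll1. Epha2, a receptor tyrosine kinase, was measured at 43.5 and 60.3 CPM for B wt, 0.293 and 3.91 for B deltaPOZ, and 0.202 to 0.729 in the T libraries, which is the order of the B libraries for Igll1 except within B wt.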

How the data were processed

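Total RNA, isolated with a MagMax-96 kit, was made into TruSeq Stranded mRNA libraries, per the labels' protocols. The values are counts per gene, made by the authors before they were deposited. Per the submitters' processing notes, TopHat2 2.0.10, SAMtools, HTSeq, DESeq and mm10/GRCm38 were used; which annotation, which strand setting and which rule for reads that fit several places were used is not given in the sources used here. Counts assigned to no gene (30.4 to 39.3%) and ambiguous counts (0.471 to 0.554%) were left out, both as shares of these and the gene counts. Names and positions came from GENCODE M21, which held 40254 of 41214 identifiers (97.7%).

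Of the 27639 genes with a count, filterByExpr kept 16456. All 8 libraries were fitted with 1 mean per group in edgeR 4.0.16 (trimmed mean of M values, glmQLFit, glmQLFTest; 4 residual degrees of freedom), on R 4.3.3, with Benjamini-Hochberg adjustment over all genes tested and a threshold of 0.05. The SE is the fold change divided by the root of F. CPM include the normalization factors. A level per length is CPM over the kilobases of all annotated exons joined. Alternatives used DESeq2 1.42.0 and limma 3.58.1, among others; the rest was computed and drawn in Python 3.11.15 (matplotlib 3.10.9, pandas 2.3.3, NumPy 2.4.6). The 2 settings that leave out 2 or 3 libraries together were added after the data were seen.

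The 7 genes and all lists were chosen with earlier results of these data known. Besides the 7, the named genes are, per list and comparison, up to 4 with the smallest p (for T against B, the largest change among called genes), the 3 protein coding genes most like each of the 7 with a mean of at least 5 CPM, and the nearest tested protein coding genes, of each of which some are printed; others are said to be picked after their values were seen. Replicates were numbered in record order. The p-values set each difference against the spread between mice within groups, which was estimated over all groups together. Some genes of the lists are counted but not reported here by name.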

Additional observations from a re-analysis of the deposited data

How the results depend on the processing

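No paired analysis was possible because replicates were numbered in record order only. Of 340 values of the 7 genes under other settings, 310 kept their direction and side of the threshold, 24 changed direction, 4 lost the threshold and 2 gained it. None of the calls between lineages changed direction. With 1 library left out, the log2 fold change of Rag1 ran from -4.31 to 0.011 in B, from -6.72 to 0.29 in T and from -3.06 to 1.56 for T against B, that of Rag2 for T against B from -4.79 to 0.11, and that of Dntt in T from -5.69 to 0.34. The difference between lineages ran from -5.61 to 3.62 for Rag1, -7.26 to 2.54 for Rag2, -3.13 to 4.17 for Dntt and -1.59 to 7.32 for Igll1. Limma-voom gave -1.13 for Rag1 and -2.09 for Rag2 in that difference. Without B deltaPOZ 2 and T deltaPOZ 1, Rag1 was at 0.28 and Dntt at 0.063 in T. Leaving out B wt 2, T wt 1 and T deltaPOZ 2 kept only 1 library in each of B wt, T wt and T deltaPOZ. The difference was then -5.18 for Rag1, -7.39 for Rag2 and -3.46 for Dntt. For T against B, Vpreb1 (-5.03) and Igll1 (-9.54) no longer passed in that fit. The cause was not tested. Calls over all genes in B numbered 1 with edgeR, 688 with DESeq2, 6 with limma-voom, 6 with B libraries alone, 0 to 9 with 1 library left out and 0 without B deltaPOZ 2 and T deltaPOZ 1. In T they numbered 0 with edgeR and 49 with DESeq2. For T against B they numbered 5801, 3621 to 4900 with 1 library left out, 2929 without B deltaPOZ 2 and T deltaPOZ 1 and 1312 without the other 3 libraries. For the difference they numbered 0, 227 with DESeq2 and 0 to 4 with 1 library left out. Depth limits Vpreb2 in 6 libraries, so none of its fold changes was recomputed, and Vpreb1 and Igll1 in T, so their change between T genotypes was not recomputed and their other values that rest on T libraries are uncertain in size.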
